A study of Mus musculus with 36 samples.

Results

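Kidney tumors of mice that express an ASPSCR1-TFE3 fusion in the renal epithelium were compared with non-transformed kidneys of mice of the same genotype by total RNA sequencing of formalin-fixed, paraffin-embedded tissue. ASPSCR1-TFE3 joins the transcription factor TFE3 to ASPSCR1 and occurs in human translocation renal cell carcinoma and alveolar soft part sarcoma. Members were taken by tissue label and sample title and made up 15 of the 36 samples of the series. The tumor group (labelled Tumor-Kidney) held 11 libraries of 6 mice, and the non-transformed group (labelled Normal-Kidney) held 4 libraries of 4 of those mice. All animals of both groups were Sglt2-Cre; ASPSCR1-TFE3 LSL/+, so the fusion allele and Cre were present in the kidneys not labelled as tumor as well. LSL is a loxP-flanked stop cassette that Cre removes, and Cre was driven by the promoter of Sglt2 (gene Slc5a2), a glucose transporter of the proximal tubule. Mice were numbered 1 to 6. Each gave 2 tumor libraries except mouse 5, which gave 1, and mice 1, 3, 4 and 5 gave 1 non-transformed kidney library each. Counts of 1 mouse were summed within a group, which left 6 tumor sums, 4 non-transformed sums and 4 mice with both tissues. Kidneys of 3 other mice with Sglt2-Cre alone (2 libraries each) served as background levels and did not enter the test. The labels give no ages, do not say how far from a tumor the non-transformed tissue lay, and do not say whether both tumor libraries of a mouse came from separate lesions.

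Library totals ran from 80205573 to 121415057 counts over the 15 libraries. Levels are given in CPM, counts scaled to library size with TMM factors, and where 4 values of the non-transformed kidneys are listed they belong to mice 1, 3, 4 and 5 in that order. Gene positions are those of GENCODE M21 on GRCm38. Some libraries stood apart. The tumor of mouse 5 held 295 CPM of Y-linked transcripts, against 482.2 CPM in its non-transformed kidney, and 5.56 CPM of Xist, the X-inactivation transcript, against 0.105 CPM. The tumor of mouse 2 held 8.87 CPM of Y-linked transcripts, and the other tumor and non-transformed sums with low Y-linked levels held at most 1.53 CPM. Y-linked transcripts and Xist together summed to 9.45 to 25.4 CPM in the tumors of mice 2, 3, 4 and 6. Whether the tumors of mice 2 and 5 hold RNA of another animal was not tested, and mouse 5 is 1 of the 4 mice with both tissues. Mice 1 and 5 were taken as male from their Y-linked levels. The other fusion mice and the control mice were taken as female. A tumor library of mouse 4 and a tumor library of mouse 2 carried 2429 and 1747 CPM of skeletal muscle genes. Without the tumor of mouse 5 the edgeR test called 5522 genes, without that of mouse 2 it called 2661, and without both muscle-rich libraries it called 3882, against 3755 with all libraries. On the first principal component (56.1% of the variance) the non-transformed kidneys lay between -106 and -99.5, and the tumors of mice 4 and 5 were the nearest to them.

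TFE3 belongs to the MiT/TFE family with TFEB, TFEC and MITF. These factors bind E-box sequences in the promoters of genes for lysosomal enzymes, the lysosomal proton pump and the Rag GTPases, which recruit the growth kinase mTORC1 to the lysosome. MITF also drives the pigment program of melanocytes. The proximal tubule, where Sglt2-Cre is active, reabsorbs glucose, amino acids and phosphate by apical carriers, takes up filtered protein by the receptors megalin and cubilin, and runs on fatty acid oxidation in mitochondria and peroxisomes.

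With all mice, 2654 genes rose in the tumors (12.1% of 21930 tested) and 1101 fell (5.02%), 17.1% together, by edgeR's quasi-likelihood test at an adjusted p under 0.05. The 4 mice with both tissues gave a different balance. With mouse as a block, 826 genes rose (4.01% of 20575 tested) and 21 fell (0.102%), 4.12% together, and 827 of these 847 genes were also called without the block, 814 higher and 13 lower. Without the block, the same 4 mice gave 1485 rises and 170 falls. In the 4 within-mouse ratios, 3868 genes were higher in all 4 tumors and 3715 lower. Of these, 852 genes were more than 2-fold higher in all 4 and 42 were more than 2-fold lower. The lowest tumor exceeded the highest non-transformed kidney for 10.7% of the genes tested, and the highest tumor was below the lowest non-transformed kidney for 7.7%. Of the 2654 rises, 1340 kept their call whichever 1 of the 10 mouse sums was left out, and 767 of those were also called in the block. Of the 1101 falls, 129 kept their call in every leave-out and 4 of those were also called in the block. DESeq2 called 3694 rises (16.8% of the genes tested) and 2310 falls (10.5%), and limma-voom with mouse as a random block, which is the limma-voom fit meant throughout, called 2463 rises (11.2%) and 2655 falls (12.1%). Without adjustment, 19.8% of genes were higher and 14.4% lower at a p under 0.05. Leaving out the non-transformed kidney of mouse 1 alone lowered the counts to 1457 rises and 255 falls. A gene is described as having risen or fallen where the unpaired test called it, and the block value is given wherever the block changed that call. Where leaving out 1 sum cost a named gene its call, the sums are listed at the end of its paragraph, T standing for a tumor and N for a non-transformed kidney, each with the number of its mouse.

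**Figure D1:**
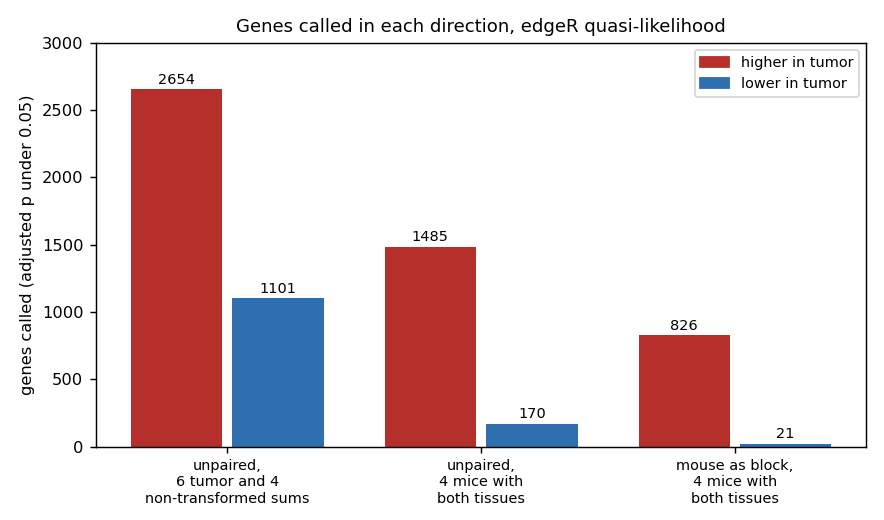
Genes called higher (red) and lower (blue) in kidney tumors by edgeR's quasi-likelihood test at an adjusted p under 0.05, in the unpaired fit of 6 tumor and 4 non-transformed sums, in the unpaired fit of the 4 mice with both tissues, and with mouse as a block. The bars for genes called lower drop from 1101 to 170 and 21, and those for genes called higher from 2654 to 1485 and 826.

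The median log2 fold change over all genes tested was -0.02. Medians above 1 were those of the melanosome, cell cycle, skeletal muscle, brain, collagen, kidney injury, macrophage and lysosomal membrane lists, and medians below -1 were those of the 4 nephron lists, renal lineage factors, keratins and blood. For cell cycle genes the 4 within-mouse medians were 2.6, 2.27, 2.03 and 2.33. For proximal tubule transport genes they were -2.5, -5.45, -0.88 and -0.60. In these genes the tumor of mouse 3 was thus the farthest below its own non-transformed kidney, and the tumors of mice 4 and 5 were the nearest.

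**Figure D2:**
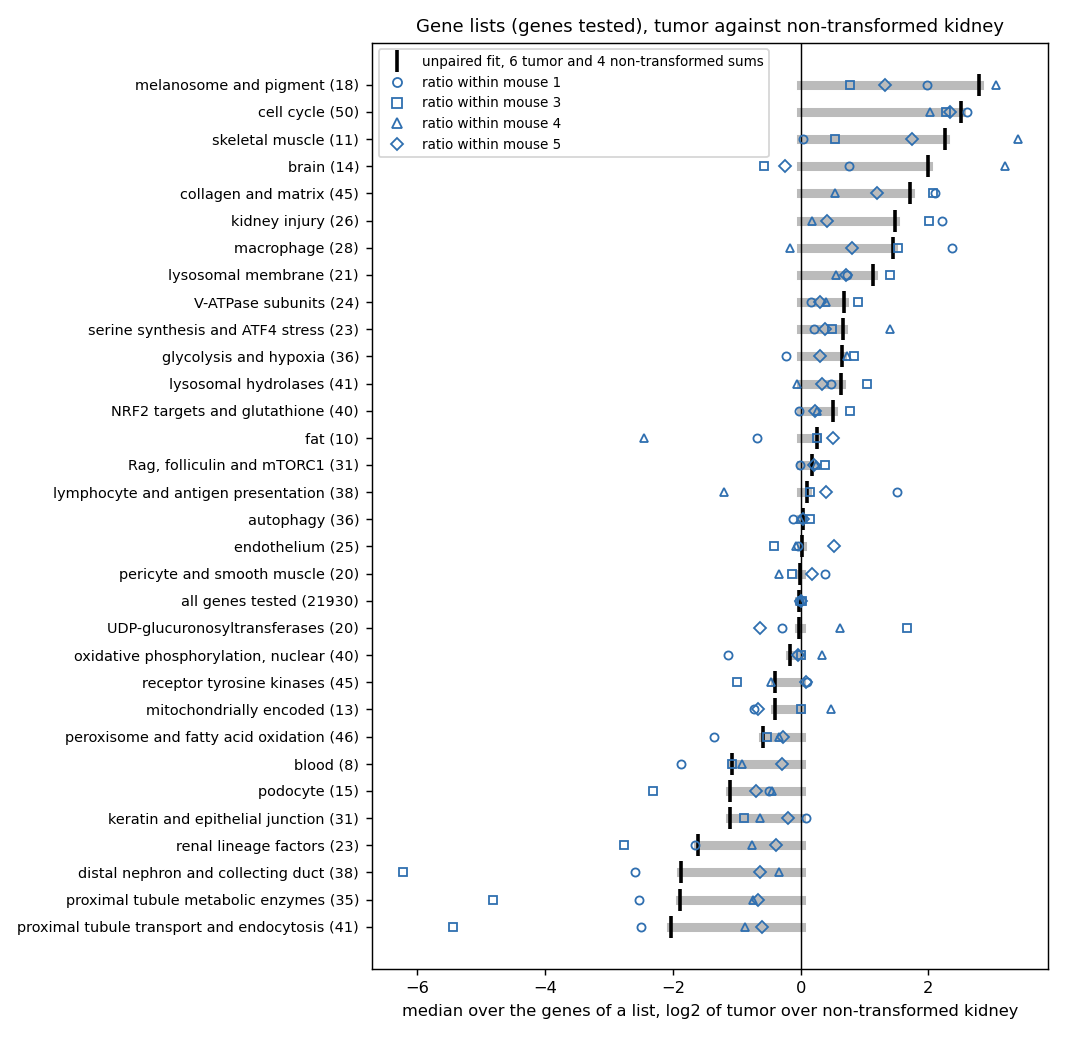
Median log2 ratio of tumor to non-transformed kidney for each gene list with the number of genes tested in brackets, from the unpaired fit (black tick) and within each of the 4 mice with both tissues (open symbols). The symbols of the cell cycle list lie between 2.03 and 2.6, and those of the proximal tubule transport list between -5.45 and -0.60.

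Of 41 genes for lysosomal hydrolases and their activators, 17 rose (41.5%, against 12.1% of all genes), 1 fell and 23 were not called, with a median log2 fold change of 0.63. Within mice the list median was 0.47, 1.04, -0.06 and 0.33 in mice 1, 3, 4 and 5. It was not higher in the tumor of mouse 4 than in its own kidney. Their summed level was 7224 to 14710 CPM in the tumors, 4488 to 5560 CPM in the non-transformed kidneys and 4360 to 5186 CPM in the control kidneys, so the lowest tumor was above the highest kidney. Gla, the alpha-galactosidase that clears globotriaosylceramide, spanned 104 to 302 CPM in the tumors (median 199) and read 10.4, 16.5, 8.96 and 10.2 CPM in the non-transformed kidneys. That was a log2 fold change ± SE of 4.12 ± 0.43 (edgeR adjusted p = 0.000300, higher in 4 of 4 pairs), and the control kidneys averaged 5.80 CPM. All 6 tumors were above all kidneys, and the 3 highest tumors were those of mice 2, 3 and 6. Ctsl, an abundant cysteine protease, lay between 927 and 2148 CPM in the 6 tumors, with a median of 1574, against 238, 335, 239 and 179 CPM (log2 fold change 2.66 ± 0.30, edgeR adjusted p = 0.000421). Ctsd, the main lysosomal aspartic protease, was at 158, 134, 114 and 134 CPM in the non-transformed kidneys and at 422 to 1006 CPM (median 698) in the tumors (log2 fold change 2.36 ± 0.29, edgeR adjusted p = 0.000734). The groups did not overlap for either protease. Hexa, a beta-hexosaminidase subunit, had a log2 fold change ± SE of 2.30 ± 0.33 (edgeR adjusted p = 0.00189, higher in 4 of 4 pairs). Ctsb (log2 fold change 1.89 ± 0.30, edgeR adjusted p = 0.00304), the glycogen-cleaving Gaa (log2 fold change 1.53 ± 0.27, edgeR adjusted p = 0.00492) and the arylsulfatase Arsa (log2 fold change 1.70 ± 0.31, edgeR adjusted p = 0.00549) rose in the same way. Psap, which encodes the saposin activators of sphingolipid breakdown, rose by less (log2 fold change 1.27 ± 0.25, edgeR adjusted p = 0.00887, 0.0837 with mouse as a block). Ctsf, another cysteine protease, was the member that fell (log2 fold change -0.93 ± 0.25, edgeR adjusted p = 0.0298, 0.148 with mouse as a block). 9 of the 17 rises kept their call in every leave-out (1340 of 2654 over all genes), and 8 members were called higher in the block (4.01% of all genes). Ctsf lost its call without T2, T3, N1, N3 or N4 (edgeR adjusted p up to 0.0932).

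Promoters are shown for 4 genes of the lysosomal and Rag groups. Each was called in the unpaired test and in the block and holds a pair of the E-box letters that MiT/TFE factors bind. The choice left out a chromosome, so other called genes may hold such a pair. The windows are the 250 bases before the annotated start, 5′ to 3′ on the gene's own strand, from RefSeq on GRCm38.p6, with CACGTG in capitals. They lie at chr7:142387828-142388077 (minus strand), chrX:134601006-134601255 (minus), chr8:3500269-3500518 (plus) and chrX:153139708-153139957 (plus).
Ctsd: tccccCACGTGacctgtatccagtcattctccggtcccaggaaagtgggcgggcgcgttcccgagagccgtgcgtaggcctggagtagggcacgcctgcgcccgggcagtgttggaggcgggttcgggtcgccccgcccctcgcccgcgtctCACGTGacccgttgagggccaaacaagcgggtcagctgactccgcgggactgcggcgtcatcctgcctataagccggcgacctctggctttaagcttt
Gla: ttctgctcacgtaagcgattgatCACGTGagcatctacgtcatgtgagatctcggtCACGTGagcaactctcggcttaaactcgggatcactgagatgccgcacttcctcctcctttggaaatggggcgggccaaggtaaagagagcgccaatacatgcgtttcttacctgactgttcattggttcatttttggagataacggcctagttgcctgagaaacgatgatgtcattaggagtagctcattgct
Mcoln1: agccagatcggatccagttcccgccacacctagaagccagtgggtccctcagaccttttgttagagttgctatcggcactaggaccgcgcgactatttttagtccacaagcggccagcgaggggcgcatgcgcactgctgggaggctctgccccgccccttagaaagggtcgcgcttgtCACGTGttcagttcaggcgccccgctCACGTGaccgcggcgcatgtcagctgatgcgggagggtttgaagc
Rragb: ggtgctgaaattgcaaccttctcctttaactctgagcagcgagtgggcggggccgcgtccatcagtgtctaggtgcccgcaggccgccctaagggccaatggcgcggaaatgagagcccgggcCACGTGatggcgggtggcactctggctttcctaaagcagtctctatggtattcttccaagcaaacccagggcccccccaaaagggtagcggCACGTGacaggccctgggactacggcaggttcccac
The motif starts 245 and 98 bases before the start in Ctsd, 227 and 194 in Gla, 71 and 45 in Mcoln1, and 127 and 36 in Rragb. The longer form TCACGTGA, which contains CACGTG, accounts for the nearer match in Ctsd and Mcoln1 and for both in Gla. Both motifs read the same on either strand. CACGTG occurs in 6.02% and TCACGTGA in 0.785% of all 32851 promoter windows of this length. Of 13262 tested genes with a window, 9% held CACGTG, against 11.6% of 1886 genes called higher and 9.9% of 818 genes called lower. In the lysosomal, V-ATPase and Rag lists, 14 of the 40 called-higher genes with a window held it (35%), and 10 of the other 56 (17.9%). These shares are a count of letters in a fixed window and were not tested.

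Genes for membrane proteins of the lysosome were higher too. Of 21 tested, 15 rose (71.4%, against 12.1% of all genes) and Slc17a5, a sialic acid exporter, fell, with a median of 1.13. Mcoln3, a calcium channel of endosomes and lysosomes, spanned 368 to 1615 CPM in the tumors (median 1056) and read 20, 70.3, 54.3 and 26.3 CPM in the non-transformed kidneys. The test gave a log2 fold change ± SE of 4.59 ± 0.55 (edgeR adjusted p = 0.000645, higher in 4 of 4 pairs). Its relative Mcoln1, the channel mutated in mucolipidosis, lay between 109 and 261 CPM in the 6 tumors, with a median of 201, against 77.4, 70.8, 69.1 and 53.9 CPM (log2 fold change 1.48 ± 0.25, edgeR adjusted p = 0.00398). Every tumor exceeded every kidney for both channels, and the tumor of mouse 5 was the lowest in each. Npc1, which exports cholesterol from the lysosome, had a log2 fold change ± SE of 1.80 ± 0.20 (edgeR adjusted p = 0.000472, higher in 4 of 4 pairs). Ostm1 (log2 fold change 1.91 ± 0.26, edgeR adjusted p = 0.00129) and Clcn7 (log2 fold change 1.53 ± 0.28, edgeR adjusted p = 0.00565), which together form the chloride-proton exchanger, both rose. The abundant membrane glycoproteins moved less, with Cd63 (log2 fold change 0.89 ± 0.18, edgeR adjusted p = 0.0106, 0.0931 with mouse as a block) and Lamp1 (log2 fold change 0.77 ± 0.18, edgeR adjusted p = 0.0160, 0.154 with mouse as a block) among the called rises. Slc17a5 fell by a small amount (log2 fold change -0.48 ± 0.14, edgeR adjusted p = 0.0466, 0.243 with mouse as a block). 10 of the 15 rises kept their call in every leave-out (1340 of 2654 over all genes) and 7 members were called higher in the block (4.01% of all genes). Lamp1 lost its call without N3 or N5 (edgeR adjusted p up to 0.0544), as did Slc17a5 without T1, T2, T3, T5, T6, N1, N3, N4 or N5 (up to 0.15).

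The V-ATPase is the proton pump that acidifies lysosomes. Of 24 subunit genes 8 rose (33.3%, against 12.1% of all genes) and none fell by edgeR's test, with a median of 0.68. At an unadjusted p under 0.05, 1 was lower (14.4% of all genes), and DESeq2 called 0 lower (10.5%) and limma-voom 4 (12.1%). Atp6v0a1, the membrane subunit a1, spanned 269 to 817 CPM in the tumors (median 600.2) and read 124, 131, 124 and 115 CPM in the non-transformed kidneys. This was a log2 fold change ± SE of 2.19 ± 0.33 (edgeR adjusted p = 0.00238, higher in 4 of 4 pairs). The stalk subunit Atp6v1g1 (log2 fold change 1.57 ± 0.28, edgeR adjusted p = 0.00562) also rose. Atp6v0d1 (log2 fold change 1.46 ± 0.28, edgeR adjusted p = 0.00786, 0.0912 with mouse as a block), Atp6v1c1 (log2 fold change 1.24 ± 0.25, edgeR adjusted p = 0.0100, 0.0767 with mouse as a block), the proteolipid Atp6v0c (log2 fold change 1.27 ± 0.28, edgeR adjusted p = 0.0141, 0.147 with mouse as a block) and its relative Atp6v0b (log2 fold change 1.03 ± 0.28, edgeR adjusted p = 0.0327, 0.138 with mouse as a block) rose in the unpaired test and not in the block. The 5 isoforms that acid-secreting intercalated cells of the collecting duct use did not pass the test and differed widely between tumors. Each stayed uncalled in 23 of 24 alternative settings and was called lower in the rest. Atp6v1b1 was at 106, 116, 94.1 and 90.4 CPM in the non-transformed kidneys and at 0.406 to 75.3 CPM (median 8.80) in the tumors (log2 fold change -2.14 ± 1.20, edgeR adjusted p = 0.235). Its 2 highest tumors were those of mice 4 and 5, and those of mice 2, 3 and 6 held at most 1.34 CPM. Atp6v0a4 (log2 fold change -2.08 ± 0.95, edgeR adjusted p = 0.15), Atp6v1c2 (log2 fold change -2.06 ± 1.16, edgeR adjusted p = 0.235), Atp6v1g3 (log2 fold change -1.87 ± 1.24, edgeR adjusted p = 0.308) and Atp6v0d2 (log2 fold change -1.37 ± 0.60, edgeR adjusted p = 0.139) were likewise lowest in the tumors of mice 2, 3 and 6. 5 of the 8 rises kept their call in every leave-out (1340 of 2654 over all genes), and 2 members were called higher in the block (4.01% of all genes). Atp6v0b lost its call without T3, T6, N1, N3, N4 or N5 (edgeR adjusted p up to 0.0907).

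**Figure D3:**
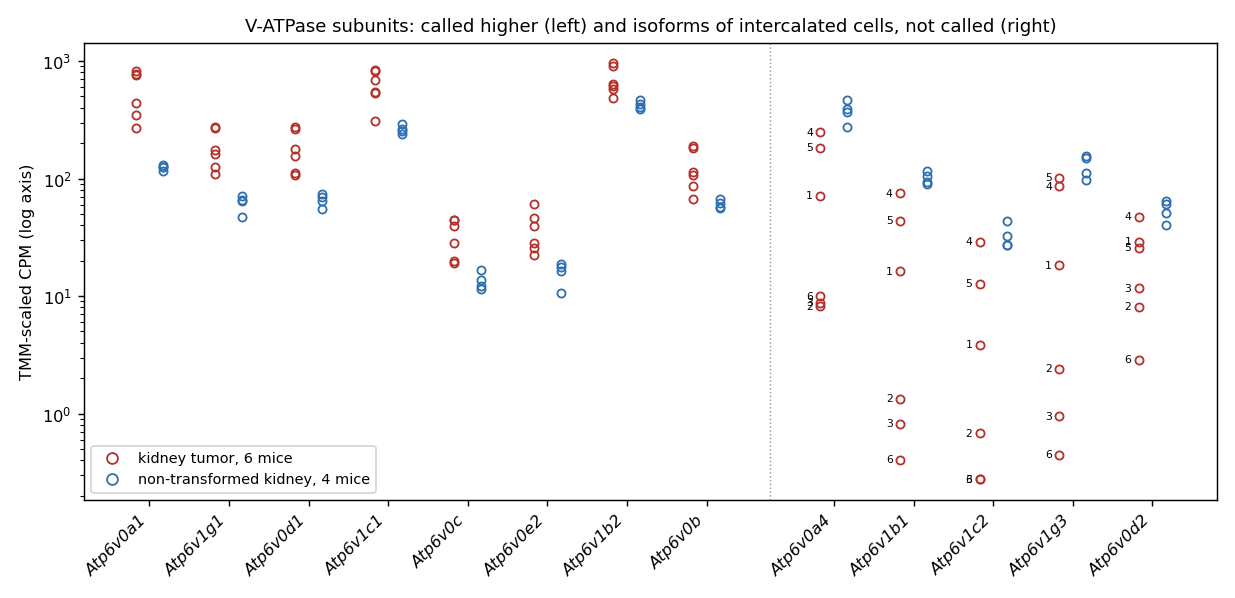
Level of 13 V-ATPase subunit genes (CPM, log axis) in 6 kidney tumors (red) and 4 non-transformed kidneys (blue), with digits giving the mouse of each tumor on the right. The 8 subunits called higher lie above the kidneys in all tumors, except Atp6v0b in that of mouse 1, while for the 5 isoforms of intercalated cells the tumors of mice 4, 5 and 1 lie nearest to the kidneys and those of mice 2, 3 and 6 far below.

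The Rag GTPase genes Rragb, Rragc and Rragd and the folliculin complex genes rose. Of 31 genes tested 10 rose (32.3%, against 12.1% of all genes), 2 fell (6.45%, against 5.02%) and 19 were not called, with a median of 0.18. Rragb, one of the paired Rag GTPases, spanned 129.7 to 332 CPM in the tumors (median 203) and read 6.32, 20.6, 9.57 and 11.5 CPM in the non-transformed kidneys. It had a log2 fold change ± SE of 4.12 ± 0.43 (edgeR adjusted p = 0.000300, higher in 4 of 4 pairs). The kidney of mouse 3 was the highest of the kidneys and still below every tumor. Rragc, its binding partner, lay between 209 and 583 CPM in the 6 tumors, with a median of 394, against 109, 119, 130.3 and 99.2 CPM (log2 fold change 1.81 ± 0.27, edgeR adjusted p = 0.00206). Rragd, which can take the place of Rragc, also rose (log2 fold change 1.68 ± 0.35, edgeR adjusted p = 0.0113, 0.107 with mouse as a block). Rraga, the fourth Rag GTPase gene, was at 70.6, 61.1, 64.8 and 73.5 CPM in the non-transformed kidneys and at 64.5 to 85.6 CPM (median 70.8) in the tumors (log2 fold change 0.13 ± 0.10, edgeR adjusted p = 0.403), so its groups overlapped and it was not called. The folliculin complex, which acts on RagC and RagD, rose in all 3 of its genes. Flcn had a log2 fold change ± SE of 1.45 ± 0.21 (edgeR adjusted p = 0.00192, higher in 4 of 4 pairs). Its partners Fnip1 (log2 fold change 1.52 ± 0.17, edgeR adjusted p = 0.000471) and Fnip2 (log2 fold change 2.18 ± 0.24, edgeR adjusted p = 0.000421) were both above every kidney in all 6 tumors. Tsc1, a brake on mTORC1, was at 73.7, 75.1, 71.5 and 60.9 CPM in the non-transformed kidneys and at 200.4 to 372.2 CPM (median 257) in the tumors (log2 fold change 1.92 ± 0.20, edgeR adjusted p = 0.000279). A pair of Ragulator genes that tether the Rags, Lamtor1 (log2 fold change 1.26 ± 0.25, edgeR adjusted p = 0.00884, 0.0733 with mouse as a block) and Lamtor3 (log2 fold change 1.02 ± 0.25, edgeR adjusted p = 0.0209, 0.0858 with mouse as a block), rose in the unpaired test. Castor2, a relative of the arginine sensor Castor1 (log2 fold change -1.09 ± 0.26, edgeR adjusted p = 0.0210, 0.0731 with mouse as a block), and Deptor, an mTOR inhibitor (log2 fold change -1.38 ± 0.40, edgeR adjusted p = 0.0401, 0.142 with mouse as a block), fell. 8 of the 10 rises kept their call in every leave-out (1340 of 2654 over all genes). The 6 called in the block (4.01% of all genes) were Tsc1, Rragb, Rragc, Flcn, Fnip1 and Fnip2. Lamtor3 lost its call without N1, N3, N4 or N5 (edgeR adjusted p up to 0.0674), as did Castor2 without N1 or N5 (up to 0.0698) and Deptor without T2, T6, N1, N3, N4 or N5 (up to 0.0948).

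None of the genes for MiT/TFE factors or for Aspscr1 was called higher by edgeR's test (0 at an unadjusted p under 0.05, 0 with DESeq2, 0 with limma-voom). Whether reads of the fusion transcript were counted with the mouse genes is not given in the sources used here. Tfe3 spanned 17.0 to 32.6 CPM in the tumors (median 27.3) and read 19.4, 17.3, 23.2 and 18.2 CPM in the non-transformed kidneys (log2 fold change 0.40 ± 0.20, edgeR adjusted p = 0.175). Tfec (log2 fold change -1.0 ± 0.37, edgeR adjusted p = 0.0872) was not called, and the test of Mitf gave a fall (log2 fold change -0.71 ± 0.21, edgeR adjusted p = 0.0454, 0.211 with mouse as a block). Mitf was at 23.8, 31.6, 34.1 and 25.5 CPM in the non-transformed kidneys and at 12.6 to 23.9 CPM (median 17.1) in the tumors. The highest tumor, that of mouse 1, lay within the range of the non-transformed kidneys. Mitf lost its call without T2, T3, T6, N1, N3, N4 or N5 (edgeR adjusted p up to 0.124).

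Autophagy genes moved in both directions, with 9 of 36 rising (25%, against 12.1% of all genes), 4 falling (11.1%, against 5.02%) and a median of 0.04. With mouse as a block 3 members were called, each of them higher (4.01% of all genes). The selective receptor Optn spanned 114 to 398 CPM in the tumors (median 278) and read 23.1, 31.0, 21.7 and 19.8 CPM in the non-transformed kidneys. The test gave a log2 fold change ± SE of 3.50 ± 0.37 (edgeR adjusted p = 0.000295, higher in 4 of 4 pairs). The receptor Sqstm1, also known as p62, lay between 295 and 669 CPM in the 6 tumors, with a median of 471, against 187, 152, 145 and 181 CPM (log2 fold change 1.52 ± 0.27, edgeR adjusted p = 0.00494, 0.0791 with mouse as a block). Gabarapl2, an Atg8-type adaptor (log2 fold change 1.38 ± 0.26, edgeR adjusted p = 0.00754), and Uvrag, a subunit of the class III PI3-kinase (log2 fold change 1.45 ± 0.23, edgeR adjusted p = 0.00277), rose in both tests. Atg7, the E1-like enzyme (log2 fold change 2.04 ± 0.43, edgeR adjusted p = 0.0122, 0.0888 with mouse as a block), and the initiating kinase Ulk1 (log2 fold change 0.94 ± 0.21, edgeR adjusted p = 0.0139, 0.136 with mouse as a block) rose in the unpaired test. Other receptor genes went the opposite way, with falls of Tax1bp1 (log2 fold change -0.54 ± 0.10, edgeR adjusted p = 0.00641, 0.143 with mouse as a block) and Nbr1 (log2 fold change -0.47 ± 0.12, edgeR adjusted p = 0.0257, 0.173 with mouse as a block). Nbr1 lost its call without N3 or N4 (edgeR adjusted p up to 0.0883).

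Pigment cell genes rose in the tumors, and some were already above background in the non-transformed kidneys. Of 18 melanosome and pigment genes tested 10 rose (55.6%, against 12.1% of all genes) and 1 (Mitf) fell, with a median of 2.80, the highest of the lists. Gpnmb, a glycoprotein of melanosomes and lysosomes, was at 107, 430.5, 361 and 122 CPM in the non-transformed kidneys and at 2698 to 6807 CPM (median 4648) in the tumors (log2 fold change 4.20 ± 0.53, edgeR adjusted p = 0.000878). The control kidneys averaged 2.03 CPM, so each non-transformed kidney lay above the controls and each tumor above each non-transformed kidney. Kidneys of mice 3 and 4 were higher than those of mice 1 and 5. Trpm1 (chr7:64153835-64269775, plus strand), a cation channel named for its expression in melanocytes, spanned 139 to 477 CPM in the tumors (median 272) and read 0.696, 7.71, 2.70 and 3.24 CPM in the non-transformed kidneys. This was a log2 fold change ± SE of 6.36 ± 0.78 (edgeR adjusted p = 0.000746, higher in 4 of 4 pairs). Myo5a, the motor that carries melanosomes, lay between 2112 and 5172 CPM in the 6 tumors, with a median of 4218, against 103, 504, 388 and 146 CPM (log2 fold change 3.79 ± 0.52, edgeR adjusted p = 0.00145). Gpr143, a receptor of the melanosome membrane (log2 fold change 5.38 ± 0.94, edgeR adjusted p = 0.00485), and the protease Bace2 (log2 fold change 3.40 ± 0.54, edgeR adjusted p = 0.00295) rose in both tests. The pigment enzymes themselves were low or uneven. Tyrp1 was at or below 2.68 CPM in 5 tumors and at 22.4 CPM in that of mouse 6 (log2 fold change 6.79 ± 1.55, edgeR adjusted p = 0.0165, log2 fold change 4.96 and adjusted p 0.0143 with mouse as a block). Dct was at 204 CPM in the tumor of mouse 4 and at or below 0.716 CPM in the other tumors, and at 36.4 CPM in the kidney of mouse 3 (log2 fold change 1.85 ± 2.39, edgeR adjusted p = 0.612, log2 fold change -0.25 and adjusted p 0.966 with mouse as a block). Without the tumor of mouse 4 the log2 fold change of Dct was -4.53 (edgeR adjusted p = 0.0689). Tyr was too low to be tested. 5 of the 10 rises kept their call in every leave-out (1340 of 2654 over all genes), and 6 members were called higher in the block (4.01% of all genes). Tyrp1 lost its call without N1, N3 or N5 (edgeR adjusted p up to 0.0593).

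**Figure D4:**
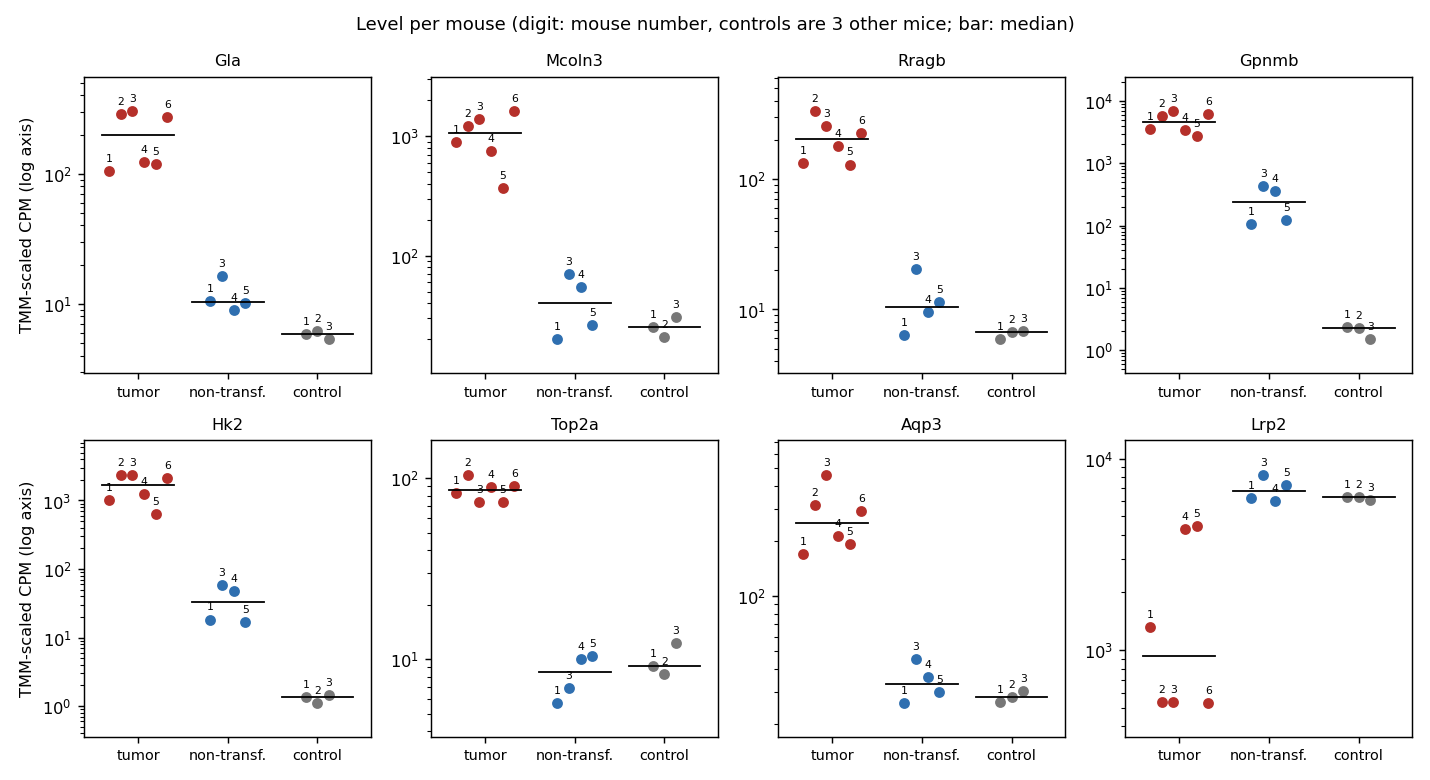
Level of 8 genes (CPM, log axis) in each kidney tumor, non-transformed kidney and control kidney, with digits for the mouse and a bar for the group median. Tumors lie above all kidneys for Gla, Mcoln3, Rragb, Gpnmb, Hk2, Top2a and Aqp3, non-transformed kidneys lie above controls for Gpnmb and Hk2, and for Lrp2 the tumors of mice 4 and 5 lie near the kidneys.

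Proliferation genes were higher in the tumors. Of 50 cell cycle genes 42 rose (84%, against 12.1% of all genes) and none fell by edgeR's test (0 at an unadjusted p under 0.05, 0 with DESeq2, 0 with limma-voom), with a median of 2.5. Every one of the 42 kept its call in each of the 10 leave-outs (1340 of 2654 over all genes), and 35 members were called higher in the block (4.01% of all genes). Top2a, the topoisomerase of dividing cells, spanned 73.5 to 104 CPM in the tumors (median 86.3) and read 5.76, 6.97, 10 and 10.4 CPM in the non-transformed kidneys. It had a log2 fold change ± SE of 3.38 ± 0.21 (edgeR adjusted p = 4.3e-05, higher in 4 of 4 pairs). Mki67, the proliferation antigen, lay between 201 and 339.9 CPM in the 6 tumors, with a median of 267, against 19.2, 29.4, 44.8 and 38.9 CPM (log2 fold change 3.02 ± 0.26, edgeR adjusted p = 0.000123). The mitotic kinase Cdk1 was at 0.958, 1.75, 1.53 and 1.18 CPM in the non-transformed kidneys and at 13.3 to 21.4 CPM (median 18.2) in the tumors (log2 fold change 3.71 ± 0.25, edgeR adjusted p = 5.5e-05). For all 3 the 6 tumors lay close together and far above the kidneys. Among genes of the kinetochore and spindle, the log2 fold changes of 3 examples were close to these, with Birc5 (log2 fold change 3.54 ± 0.22, edgeR adjusted p = 4.3e-05), Cenpe (log2 fold change 3.68 ± 0.28, edgeR adjusted p = 7.8e-05) and Bub1 (log2 fold change 3.76 ± 0.30, edgeR adjusted p = 8.7e-05). The replication helicase gene Mcm2 (log2 fold change 1.80 ± 0.25, edgeR adjusted p = 0.00148) and the sliding clamp gene Pcna (log2 fold change 1.01 ± 0.21, edgeR adjusted p = 0.0115, 0.0637 with mouse as a block) rose too. The G1 kinase gene Cdk4 spanned 163 to 366 CPM in the tumors (median 218.5) and read 35.3, 50.5, 52.8 and 32.3 CPM in the non-transformed kidneys (log2 fold change 2.52 ± 0.28, edgeR adjusted p = 0.000456). Its partner Ccnd1 (log2 fold change 1.95 ± 0.32, edgeR adjusted p = 0.00342) rose, and the test of Cdk6 gave no call (edgeR adjusted p = 0.0814). Cdk6 stayed uncalled in 20 of 24 alternative settings and was called higher in the rest. The inhibitors Cdkn2a (log2 fold change 5.60 ± 1.11, edgeR adjusted p = 0.00890) and Cdkn1a (log2 fold change 1.90 ± 0.25, edgeR adjusted p = 0.00109) also rose. Cdkn2a was at 0 counts in the kidney of mouse 1, at or below 0.240 CPM in the others, and at 1.23 to 6.64 CPM in the tumors. With kidneys this low, its log2 fold change ran from 5.2 to 7.6 over the leave-outs.

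Genes of glycolysis and lactate export rose in part. Of 36 glycolysis and hypoxia genes 11 rose (30.6%, against 12.1% of all genes) and none fell by edgeR's test, with a list median of 0.65. At an unadjusted p under 0.05, 4 were lower (14.4% of all genes), and DESeq2 called 3 lower (10.5%) and limma-voom 2 (12.1%). Hk2 (chr6:82725025-82774454, minus strand), the inducible hexokinase, was at 18.3, 58.5, 48.1 and 16.7 CPM in the non-transformed kidneys and at 642 to 2378 CPM (median 1681) in the tumors (log2 fold change 5.51 ± 0.61, edgeR adjusted p = 0.000422). It was at 1.31 CPM in the control kidneys, so the non-transformed kidneys again lay between controls and tumors. Pfkfb3, which makes the allosteric activator of phosphofructokinase, spanned 88.5 to 358 CPM in the tumors (median 243) and read 17.8, 26.2, 25.8 and 18.9 CPM in the non-transformed kidneys (log2 fold change 3.34 ± 0.41, edgeR adjusted p = 0.000680). Slc16a3, the lactate exporter, had a log2 fold change ± SE of 4.99 ± 0.86 (edgeR adjusted p = 0.00458, higher in 4 of 4 pairs). Pkm (log2 fold change 1.29 ± 0.27, edgeR adjusted p = 0.0120) and Pfkp (log2 fold change 1.47 ± 0.33, edgeR adjusted p = 0.0149) rose in both tests. Hif1a, the oxygen-regulated factor, lay between 559 and 1855 CPM in the 6 tumors, with a median of 1344, against 233, 343, 304 and 259.9 CPM (log2 fold change 2.21 ± 0.32, edgeR adjusted p = 0.00187). Its transcript does not report its protein, and the kidney hypoxia gene Ndrg1 was not called (log2 fold change -1.54 ± 0.53, edgeR adjusted p = 0.0688). Ndrg1 stayed uncalled in 18 of 24 alternative settings and was called lower in the rest. Among 40 nuclear genes of oxidative phosphorylation, 1 was called lower (2.5%, against 5.02% of all genes), Sdha (log2 fold change -0.76 ± 0.21, edgeR adjusted p = 0.0352, 0.199 with mouse as a block). The other 39 were not called, with a median of -0.17. None of the 13 mitochondrially encoded genes was called by edgeR's test, 1 of them was lower at an unadjusted p under 0.05, and DESeq2 and limma-voom called 0. 6 of the 11 glycolytic rises kept their call in every leave-out (1340 of 2654 over all genes), and 8 members were called higher in the block (4.01% of all genes). Pfkp lost its call without N1 or N5 (edgeR adjusted p up to 0.0579), as did Sdha without T2, T3, T6, N1, N3, N4 or N5 (up to 0.0981).

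Oxidative stress and conjugation genes were mixed. Of 40 NRF2 targets and glutathione genes 12 rose (30%, against 12.1% of all genes) and 3 fell (7.5%, against 5.02%), with a median of 0.50. Slc7a11 (chr3:49892526-50443614, minus strand), the cystine importer that feeds glutathione synthesis, spanned 10.7 to 188 CPM in the tumors (median 55.7) and read 0.244, 1.26, 1.51 and 0.732 CPM in the non-transformed kidneys. The test gave a log2 fold change ± SE of 6.32 ± 0.95 (edgeR adjusted p = 0.00219, log2 fold change 5.39 and adjusted p 0.0139 with mouse as a block, higher in 4 of 4 pairs). Hmox1, heme oxygenase 1, lay between 198 and 424 CPM in the 6 tumors, with a median of 279, against 50.6, 27.0, 26.7 and 52.7 CPM (log2 fold change 2.94 ± 0.34, edgeR adjusted p = 0.000482). Both genes were above all kidneys in every tumor, with the tumor of mouse 5 lowest for Slc7a11. Nfe2l2, which encodes NRF2 itself, was at 203 to 219 CPM in the 4 non-transformed kidneys and at a median of 464 CPM in the tumors (log2 fold change 1.35 ± 0.29, edgeR adjusted p = 0.0129, 0.0868 with mouse as a block). The pentose phosphate enzymes G6pdx (log2 fold change 1.78 ± 0.39, edgeR adjusted p = 0.0140, log2 fold change 1.17 and adjusted p 0.0658 with mouse as a block) and Pgd (log2 fold change 2.41 ± 0.55, edgeR adjusted p = 0.0160, log2 fold change 1.55 and adjusted p 0.144 with mouse as a block) and the ferritin chain Ftl1 (log2 fold change 1.13 ± 0.26, edgeR adjusted p = 0.0158, 0.148 with mouse as a block) rose in the unpaired test. Osgin1 (log2 fold change -1.58 ± 0.38, edgeR adjusted p = 0.0192, 0.115 with mouse as a block), the glutathione reductase Gsr (log2 fold change -0.66 ± 0.19, edgeR adjusted p = 0.0372, 0.189 with mouse as a block) and Gstt1 (log2 fold change -0.82 ± 0.24, edgeR adjusted p = 0.0442, 0.216 with mouse as a block) fell. 5 of the 12 rises kept their call in every leave-out (1340 of 2654 over all genes), and 3 members were called higher in the block (4.01% of all genes). G6pdx lost its call without N1 (edgeR adjusted p up to 0.0521), as did Pgd without N3 or N5 (up to 0.0535), Ftl1 without N1 (up to 0.0546), Osgin1 without N3 or N4 (up to 0.0589), Gsr without T1, T2, T3, T6, N1, N3, N4 or N5 (up to 0.106) and Gstt1 without T1, T2, T3, T6, N1, N3, N4 or N5 (up to 0.129).

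Among 20 UDP-glucuronosyltransferases, which conjugate lipids and drugs, 5 rose (25%, against 12.1% of all genes) and none fell by edgeR's test, with a median of -0.03. At an unadjusted p under 0.05, 1 was lower (14.4% of all genes), and DESeq2 called 1 lower (10.5%) and limma-voom 3 (12.1%). Ugt2b35 (chr5:87000860-87013275, plus strand) spanned 23.0 to 769 CPM in the tumors (median 324) and read 0.199, 3.78, 2.54 and 0.732 CPM in the non-transformed kidneys. This was a log2 fold change ± SE of 7.59 ± 1.38 (edgeR adjusted p = 0.00582, log2 fold change 6.67 and adjusted p 0.00949 with mouse as a block, higher in 4 of 4 pairs). Ugt1a9 lay between 21.3 and 623 CPM in the 6 tumors, with a median of 254, against 3.90, 5.68, 7.01 and 3.40 CPM (log2 fold change 5.78 ± 1.12, edgeR adjusted p = 0.00809, log2 fold change 3.84 and adjusted p 0.0605 with mouse as a block). The control kidneys held 46.6, 3.77 and 4.49 CPM of Ugt1a9, so 1 of them was above the tumor of mouse 5. For both genes the tumors of mice 2, 3 and 6 (at least 455 CPM) were above those of mice 1, 4 and 5 (at most 181 CPM). Genes of this family share exons or near-identical sequence, and how the counting split such reads is not given in the sources used here, so values of single members are uncertain. 2 of the 5 rises kept their call in every leave-out (1340 of 2654 over all genes), and 1 member was called higher in the block (4.01% of all genes).

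Of 23 serine synthesis and ATF4 stress genes 6 rose (26.1%, against 12.1% of all genes) and 2 fell (8.7%, against 5.02%), with a median of 0.66. Ddit3, which encodes CHOP, spanned 18.2 to 43.6 CPM in the tumors (median 36.0) and read 5.96, 8.90, 8.0 and 5.82 CPM in the non-transformed kidneys (log2 fold change 2.20 ± 0.29, edgeR adjusted p = 0.00103). The stress factors Atf3 (log2 fold change 3.98 ± 0.64, edgeR adjusted p = 0.00314) and Atf5 (log2 fold change 2.08 ± 0.32, edgeR adjusted p = 0.00234) and the mitochondrial folate enzyme Mthfd1l (log2 fold change 1.67 ± 0.27, edgeR adjusted p = 0.00342) rose in both tests and kept their calls in every leave-out. The serine hydroxymethyltransferases Shmt1 (log2 fold change -0.93 ± 0.28, edgeR adjusted p = 0.0447, 0.164 with mouse as a block) and Shmt2 (log2 fold change -1.14 ± 0.35, edgeR adjusted p = 0.0495, 0.194 with mouse as a block) fell. Shmt1 lost its call without T1, T2, T3, T6, N1, N3 or N4 (edgeR adjusted p up to 0.139), as did Shmt2 without T1, T2, T3, T6, N1, N3, N4 or N5 (up to 0.136).

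Nephron genes were lower in the tumors by amounts that differed between mice. In bulk samples, fewer cells of a type and less RNA per cell cannot be told apart. The 41 proximal tubule transport and endocytosis genes summed to 24040 to 28170 CPM in the non-transformed kidneys and to 23550 to 23900 CPM in the control kidneys. In the tumors they summed to 6135, 1274, 1521, 14180, 18750 and 1439 CPM in mice 1 to 6. All 6 tumors were below all 4 kidneys in this sum, the tumors of mice 4 and 5 were the nearest to them and those of mice 2, 3 and 6 the farthest. The proximal tubule marker Lrp2 averaged 6222 CPM in the control kidneys and was at 6008 to 8235 CPM in the non-transformed kidneys. Of the 41 genes, 2 (4.88%, against 5.02% of all genes) fell by edgeR's unpaired test, with a median of -2.02. At an unadjusted p under 0.05, 12 were lower (14.4% of all genes), and DESeq2 called 11 lower (10.5%) and limma-voom 37 (12.1%). By range, 20 of 41 did not overlap between the groups, all below (7.7% of all genes). Dab2, the adaptor of megalin, spanned 212 to 531 CPM in the tumors (median 310) and read 883, 560.2, 682 and 734 CPM in the non-transformed kidneys (log2 fold change -1.07 ± 0.28, edgeR adjusted p = 0.0272, 0.0621 with mouse as a block). Slc7a7, a basolateral amino acid exporter, fell too (log2 fold change -1.51 ± 0.41, edgeR adjusted p = 0.0333, 0.133 with mouse as a block). Megalin itself, Lrp2, lay between 532 and 4424 CPM in the 6 tumors, with a median of 929, against 6217, 8235, 6008 and 7291 CPM (log2 fold change -1.83 ± 0.67, edgeR adjusted p = 0.0851). Lrp2 stayed uncalled in 18 of 24 alternative settings and was called lower in the rest. Slc5a2, the gene whose promoter drove Cre, was at 450, 184, 279 and 209.6 CPM in the non-transformed kidneys and at 0.504 to 154 CPM (median 26.7) in the tumors (log2 fold change -2.58 ± 1.32, edgeR adjusted p = 0.195). Its tumors of mice 2, 3 and 6 held 0.504 to 1.57 CPM. Slc5a2 stayed uncalled in 23 of 24 alternative settings and was called lower in the rest. Slc2a2, a basolateral glucose transporter, was not called in the unpaired test and was called with mouse as a block, with log2 ratios of -1.01, -1.92, -0.92 and -1.16 in mice 1, 3, 4 and 5 (log2 fold change -1.44 ± 0.56, edgeR adjusted p = 0.0999, 0.0370 with mouse as a block). Dab2 lost its call without T2, N1, N4 or N5 (edgeR adjusted p up to 0.0834), as did Slc7a7 without T1, T3, T6, N1, N3, N4 or N5 (up to 0.115).

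**Figure D5:**
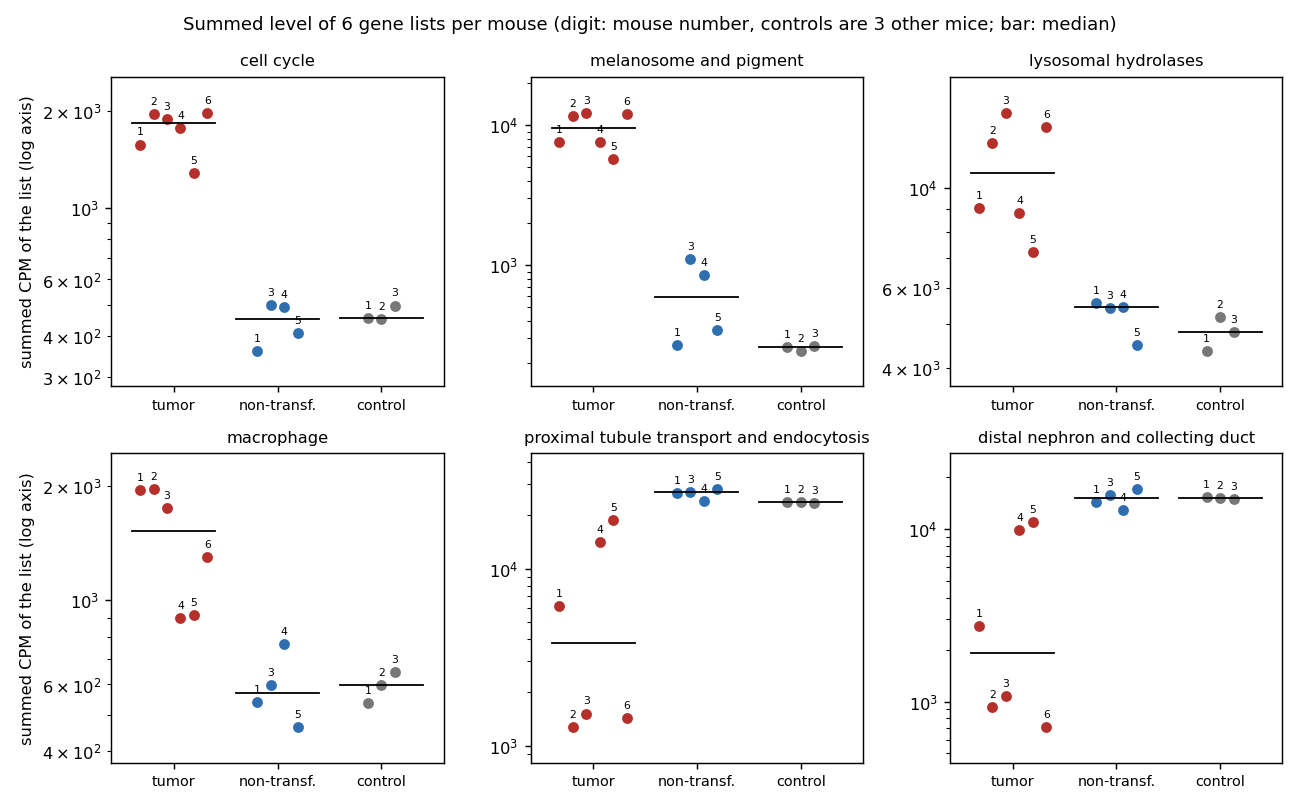
Summed CPM (log axis) of 6 gene lists in each kidney tumor, non-transformed kidney and control kidney, with digits for the mouse and a bar for the group median. Cell cycle, melanosome and lysosomal hydrolase sums of all tumors lie above all kidneys, while both nephron sums range widely among tumors, with mice 4 and 5 highest.

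Enzymes of the proximal tubule and genes of the distal nephron were likewise highest in the tumors of mice 4 and 5. Of 35 proximal tubule enzymes 3 fell (8.57%, against 5.02% of all genes), Prodh (log2 fold change -1.91 ± 0.51, edgeR adjusted p = 0.0302, 0.119 with mouse as a block), Dpyd (log2 fold change -1.18 ± 0.32, edgeR adjusted p = 0.0306) and Ddo (log2 fold change -1.06 ± 0.30, edgeR adjusted p = 0.0355, 0.0770 with mouse as a block), which degrade proline, pyrimidines and D-aspartate (list median -1.89). DESeq2 called 12 and limma-voom 27 of these enzymes lower (10.5% and 12.1% of all genes). Dpyd was also called lower in the block. Of 38 distal nephron and collecting duct genes none fell by edgeR's test, while the median was -1.88. At an unadjusted p under 0.05, 5 were lower (14.4% of all genes), and DESeq2 called 3 lower (10.5%) and limma-voom 31 (12.1%). By range, 14 lay below the kidneys in all tumors, as did 7.7% of all genes. The sum of the list was 9921 and 11040 CPM in the tumors of mice 4 and 5, 711 to 2758 CPM in the other tumors and 13000 to 17090 CPM in the kidneys. Aqp3 and Pvalb rose against that direction (5.26% of the list, against 12.1% of all genes). Aqp3, a basolateral water and glycerol channel of the collecting duct, spanned 170.2 to 461 CPM in the tumors (median 252) and read 26.1, 45.2, 36.0 and 29.8 CPM in the non-transformed kidneys. It had a log2 fold change ± SE of 2.99 ± 0.32 (edgeR adjusted p = 0.000329, higher in 4 of 4 pairs). Pvalb, a calcium buffer of the distal convoluted tubule, lay between 14.7 and 177 CPM in the 6 tumors, with a median of 107, against 9.83, 21.7, 8.82 and 7.24 CPM (log2 fold change 3.06 ± 0.68, edgeR adjusted p = 0.0151, 0.0840 with mouse as a block). The tumor of mouse 1 lay within the range of the kidneys for Pvalb. Of 15 podocyte genes Npnt (log2 fold change -1.73 ± 0.51, edgeR adjusted p = 0.0438, 0.168 with mouse as a block) and Podxl (log2 fold change -1.36 ± 0.42, edgeR adjusted p = 0.0486, 0.102 with mouse as a block) fell (13.3%, against 5.02% of all genes). Neither was called in the block or in every leave-out. By range, 7 of the 15 did not overlap between the groups, all below (7.7% of all genes). Prodh lost its call without T1, T3, T6, N1, N3 or N5 (edgeR adjusted p up to 0.0973), as did Dpyd without T3, T6, N1, N4 or N5 (up to 0.0978), Ddo without T3, T6, N1, N3, N4 or N5 (up to 0.0923), Pvalb without N1 or N5 (up to 0.0543), Npnt without T1, T2, T3, T6, N1, N3, N4 or N5 (up to 0.121) and Podxl without T1, T2, T3, T6, N1, N3, N4 or N5 (up to 0.114).

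Renal lineage factors fell in 6 of 23 cases (26.1%, against 5.02% of all genes) and rose in none by edgeR's test (0 at an unadjusted p under 0.05, 0 with DESeq2, 0 with limma-voom), with a median of -1.61. DESeq2 called 11 and limma-voom 20 of them lower (10.5% and 12.1% of all genes). Ppara, the nuclear receptor of fatty acid oxidation, spanned 14.8 to 36.6 CPM in the tumors (median 17.6) and read 55, 47.4, 61.6 and 37.2 CPM in the non-transformed kidneys. It had a log2 fold change ± SE of -1.30 ± 0.27 (edgeR adjusted p = 0.0106, higher in 0 of 4 pairs) and was the one member called lower in the block. Its tumor of mouse 4 was just below the lowest kidney. Lhx1 lay between 2.40 and 9.66 CPM in the 6 tumors, with a median of 3.43, against 14.5, 12.5, 13.5 and 15.1 CPM (log2 fold change -1.68 ± 0.38, edgeR adjusted p = 0.0155, 0.0671 with mouse as a block). Nr1h4, the bile acid receptor FXR (log2 fold change -1.13 ± 0.27, edgeR adjusted p = 0.0204, 0.108 with mouse as a block), fell in the unpaired test. Hnf4a, which maintains the proximal tubule, was not called (log2 fold change -1.79 ± 0.70, edgeR adjusted p = 0.0999). Hnf4a stayed uncalled in 20 of 24 alternative settings and was called lower in the rest. It was at 262, 259.7, 259.8 and 231 CPM in the non-transformed kidneys and at 10.3 to 176 CPM (median 49.0) in the tumors. The nephron sums of the same tumors moved with these values, and their part in the falls was not tested. Nr1h4 lost its call without N1 or N5 (edgeR adjusted p up to 0.0762).

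Peroxisome and fatty acid oxidation genes held more falls than any other list by edgeR's test. Of 46 genes 14 fell (30.4%, against 5.02% of all genes) and 1 rose, with a median of -0.58. No member was called in the block, where 24 were lower at an unadjusted p under 0.05, as were 9.96% of all genes. DESeq2 and limma-voom each called 24 lower, against 10.5% and 12.1% of all genes. Hsd17b4, the bifunctional enzyme of peroxisomal oxidation, spanned 310.4 to 381 CPM in the tumors (median 341) and read 548, 456, 544 and 427 CPM in the non-transformed kidneys (log2 fold change -0.53 ± 0.12, edgeR adjusted p = 0.0141, 0.164 with mouse as a block). Its call was kept in every leave-out, and the groups did not overlap. Abcd3, a peroxisomal fatty acid transporter (log2 fold change -0.94 ± 0.21, edgeR adjusted p = 0.0141, 0.111 with mouse as a block), and the mitochondrial Cpt2 (log2 fold change -0.80 ± 0.21, edgeR adjusted p = 0.0304, 0.163 with mouse as a block) also fell. Ppargc1a, a coactivator of mitochondrial genes, was the member that rose (log2 fold change 0.88 ± 0.26, edgeR adjusted p = 0.0444, 0.196 with mouse as a block). Proximal tubule sums were lower in the same tumors, and their part in these results was not tested. Abcd3 lost its call without N1 (edgeR adjusted p up to 0.0525), as did Cpt2 without T2, T3, T6, N1, N3, N4 or N5 (up to 0.0927) and Ppargc1a without T2, T3, T4, T6, N1, N3, N4 or N5 (up to 0.115).

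Genes induced in injured tubules were higher. Of 26 kidney injury genes 13 rose (50%, against 12.1% of all genes) and none fell by edgeR's test, with a median of 1.48. At an unadjusted p under 0.05, 3 were lower (14.4% of all genes), and DESeq2 called 0 lower (10.5%) and limma-voom 2 (12.1%). Lgals3, a galactoside-binding lectin, read 48.3, 71.9, 52.0 and 65.3 CPM in the non-transformed kidneys and was higher in each tumor, with a tumor median of 462 CPM (log2 fold change 2.94 ± 0.32, edgeR adjusted p = 0.000397). Timp1, a matrix protease inhibitor, lay between 9.47 and 46.0 CPM in the 6 tumors, with a median of 26.1, against 0.551, 1.84, 2.46 and 1.83 CPM (log2 fold change 4.04 ± 0.59, edgeR adjusted p = 0.00199). Tnfrsf12a, the TWEAK receptor, rose in both tests (log2 fold change 2.76 ± 0.47, edgeR adjusted p = 0.00437). Sox9 was at 1.61, 1.33, 1.61 and 2.85 CPM in the non-transformed kidneys and at 6.43 to 95.1 CPM (median 58.7) in the tumors (log2 fold change 4.83 ± 0.82, edgeR adjusted p = 0.00430, log2 fold change 4.04 and adjusted p 0.0981 with mouse as a block). Vcam1 (log2 fold change 3.44 ± 0.54, edgeR adjusted p = 0.00289, 0.0612 with mouse as a block), Cd44 (log2 fold change 3.96 ± 0.67, edgeR adjusted p = 0.00400, log2 fold change 3.29 and adjusted p 0.0840 with mouse as a block) and Spp1 (log2 fold change 1.19 ± 0.21, edgeR adjusted p = 0.00562, 0.0819 with mouse as a block) rose in the unpaired test. The tumor of mouse 5 was the lowest of the 6 for Lgals3, Timp1, Sox9, Vcam1, Cd44 and Spp1. 9 of the 13 rises kept their call in every leave-out (1340 of 2654 over all genes) and 4 were called in the block (4.01% of all genes).

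Collagen and matrix genes rose in 30 of 45 cases (66.7%, against 12.1% of all genes), and Timp3, an inhibitor of matrix proteases, fell (log2 fold change -1.03 ± 0.30, edgeR adjusted p = 0.0421, 0.122 with mouse as a block), with a median of 1.72. Basement membrane, fibrillar and minor collagens were all represented. Col10a1 (chr10:34389981-34397085, plus strand), a collagen of hypertrophic cartilage, spanned 20.5 to 144 CPM in the tumors (median 56.6) and read 0.127, 0.258, 0.291 and 0.288 CPM in the non-transformed kidneys. This was a log2 fold change ± SE of 8.15 ± 0.75 (edgeR adjusted p = 0.000157, higher in 4 of 4 pairs). Col11a1, a minor fibrillar collagen, lay between 7.37 and 48.6 CPM in the 6 tumors, with a median of 30.5, against 0.687, 1.33, 1.34 and 0.981 CPM (log2 fold change 4.78 ± 0.54, edgeR adjusted p = 0.000460). Both were near 0 in all kidneys, with averages of 0.0334 and 0.701 CPM in the controls. Col4a1 (log2 fold change 1.27 ± 0.19, edgeR adjusted p = 0.00241) and Col4a2 (log2 fold change 1.28 ± 0.19, edgeR adjusted p = 0.00218), the ubiquitous basement membrane chains, rose by close amounts. Col4a3, a chain of the glomerular and tubular basement membrane, was not called (log2 fold change -2.02 ± 0.87, edgeR adjusted p = 0.132). Col4a3 stayed uncalled in 22 of 24 alternative settings and was called lower in the rest. The main fibrillar gene Col1a1 was at 42.5, 60.8, 88.0 and 102 CPM in the non-transformed kidneys and at 204 to 697 CPM (median 451) in the tumors (log2 fold change 2.66 ± 0.44, edgeR adjusted p = 0.00379, 0.0868 with mouse as a block). Fn1 (log2 fold change 2.33 ± 0.43, edgeR adjusted p = 0.00586, 0.0816 with mouse as a block) and Col3a1 (log2 fold change 2.13 ± 0.38, edgeR adjusted p = 0.00542, 0.0865 with mouse as a block) rose in the unpaired test. Sparc (log2 fold change 1.79 ± 0.27, edgeR adjusted p = 0.00241), Fbn1 (log2 fold change 1.85 ± 0.37, edgeR adjusted p = 0.00884) and Loxl2 (log2 fold change 2.6 ± 0.50, edgeR adjusted p = 0.00764) rose in both tests. 22 of the 30 rises kept their call in every leave-out (1340 of 2654 over all genes) and 12 members were called higher in the block (4.01% of all genes). Timp3 lost its call without T1, T2, T3, T6, N1, N3, N4 or N5 (edgeR adjusted p up to 0.102).

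Macrophage genes rose in 14 of 28 cases (50%, against 12.1% of all genes) and fell in none by edgeR's test, with a median of 1.45. At an unadjusted p under 0.05, 1 was lower (14.4% of all genes), and DESeq2 called 0 lower (10.5%) and limma-voom 1 (12.1%). The summed level of the list was 1954, 1960, 1747, 896, 915 and 1303 CPM in the tumors of mice 1 to 6 and 463 to 768 CPM in the non-transformed kidneys. Mouse 4 had the smallest difference, with a median log2 ratio of -0.16 over the list. Trem2, a lipid receptor of macrophages, spanned 2.86 to 16.5 CPM in the tumors (median 9.19) and read 0.163, 0.166, 0.533 and 0.314 CPM in the non-transformed kidneys (log2 fold change 4.94 ± 0.65, edgeR adjusted p = 0.00109). Apoe (log2 fold change 2.07 ± 0.30, edgeR adjusted p = 0.00187) and Cd68 (log2 fold change 3.09 ± 0.50, edgeR adjusted p = 0.00325) also rose in both tests, and Cd68 is a lysosomal protein that other cells express too. The complement gene C1qa lay between 15.6 and 53.2 CPM in the 6 tumors, with a median of 31.6, against 10.3, 10.4, 13.8 and 8.55 CPM (log2 fold change 1.67 ± 0.38, edgeR adjusted p = 0.0156, 0.115 with mouse as a block). Adgre1, which encodes F4/80, rose in the unpaired test (log2 fold change 1.69 ± 0.48, edgeR adjusted p = 0.0379, 0.220 with mouse as a block). Several hydrolases of the lysosomal list, such as Ctss (log2 fold change 1.76 ± 0.40, edgeR adjusted p = 0.0157, 0.155 with mouse as a block), are abundant in macrophages. All 4 macrophage markers Csf1r, Adgre1, C1qa and C1qb were above 0 in every sum, and the part of macrophages in the lysosomal rises was not tested. 4 of the 14 rises kept their call in every leave-out (1340 of 2654 over all genes), and 3 members were called higher in the block (4.01% of all genes). C1qa lost its call without N1 or N5 (edgeR adjusted p up to 0.0525), as did Adgre1 without T1, T2, T3, N1, N3 or N5 (up to 0.108) and Ctss without N1, N3 or N5 (up to 0.0572).

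Other stromal and immune lists held rises in 7.89% (lymphocyte and antigen presentation), 8% (endothelium) and 15% (pericyte and smooth muscle) of their genes, against 12.1% of all genes. In 38 lymphocyte and antigen presentation genes, the rises were those of the MHC class I genes H2-D1, H2-K1 and B2m. H2-D1 spanned 879.8 to 2470 CPM in the tumors (median 1183) and read 232, 319.2, 344 and 219 CPM in the non-transformed kidneys (log2 fold change 2.42 ± 0.37, edgeR adjusted p = 0.00236). B2m (log2 fold change 1.23 ± 0.18, edgeR adjusted p = 0.00211) rose in both tests and H2-K1 (log2 fold change 1.43 ± 0.32, edgeR adjusted p = 0.0147, 0.0788 with mouse as a block) in the unpaired test. MHC class I genes have near-identical copies, so the values of H2-D1 and H2-K1 are uncertain. Of 25 endothelial genes Angpt2 (log2 fold change 1.75 ± 0.30, edgeR adjusted p = 0.00434, 0.0751 with mouse as a block) and Cdh5 (log2 fold change 0.80 ± 0.22, edgeR adjusted p = 0.0340, 0.168 with mouse as a block) rose, with a median of 0.02. Of 20 pericyte and smooth muscle genes Mcam (log2 fold change 1.46 ± 0.27, edgeR adjusted p = 0.00580), Pdgfrb (log2 fold change 0.87 ± 0.20, edgeR adjusted p = 0.0180, 0.106 with mouse as a block) and Notch3 (log2 fold change 0.79 ± 0.21, edgeR adjusted p = 0.0298, 0.0580 with mouse as a block) rose (median -0.02). H2-K1 lost its call without N1 or N5 (edgeR adjusted p up to 0.0575), as did Cdh5 without T2, N1, N3 or N5 (up to 0.10), Pdgfrb without N1, N3 or N5 (up to 0.0640) and Notch3 without T2, T3, N1, N3, N4 or N5 (up to 0.0988).

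Of 45 receptor tyrosine kinases 5 rose (11.1%, against 12.1% of all genes) and 1 fell, a share near that of all genes. Ret, the receptor of GDNF in kidney development, spanned 28.6 to 159 CPM in the tumors (median 44.4) and read 1.99, 9.72, 2.36 and 1.99 CPM in the non-transformed kidneys (log2 fold change 4.06 ± 0.76, edgeR adjusted p = 0.00684, 0.0504 with mouse as a block). The tumors of mice 4 and 5 were the highest. Axl (log2 fold change 1.35 ± 0.29, edgeR adjusted p = 0.0135, 0.118 with mouse as a block) and Flt4 (log2 fold change 0.82 ± 0.18, edgeR adjusted p = 0.0122, 0.128 with mouse as a block) also rose, and Erbb2 fell (log2 fold change -0.87 ± 0.26, edgeR adjusted p = 0.0470, 0.185 with mouse as a block). Tyro3 was not called in the unpaired test and was called with mouse as a block (log2 fold change 1.20 ± 0.39, edgeR adjusted p = 0.0579, 0.0410 with mouse as a block). Axl lost its call without N1 (edgeR adjusted p up to 0.0518), as did Erbb2 without T3, T6, N1, N3, N4 or N5 (up to 0.125).

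Keratin and junction genes had a median of -1.11, with 4 of 31 rising (12.9%, against 12.1% of all genes) and none falling by edgeR's test. At an unadjusted p under 0.05, 3 were lower (14.4% of all genes), and DESeq2 called 2 lower (10.5%) and limma-voom 8 (12.1%). Ivl, involucrin of the cornified envelope, spanned 31.0 to 376 CPM in the tumors (median 237) and read 0.380, 7.78, 7.25 and 3.27 CPM in the non-transformed kidneys (log2 fold change 5.49 ± 1.05, edgeR adjusted p = 0.00762). Snai2, a repressor of epithelial genes, lay between 13.8 and 25.8 CPM in the 6 tumors, with a median of 21.3, against 6.41, 5.85, 8.04 and 5.35 CPM (log2 fold change 1.70 ± 0.22, edgeR adjusted p = 0.000935). Cldn4, a tight junction claudin, rose in the unpaired test (log2 fold change 2.84 ± 0.65, edgeR adjusted p = 0.0169, 0.0576 with mouse as a block). Cldn4 lost its call without N1, N4 or N5 (edgeR adjusted p up to 0.0576).

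Transcripts of other tissues were checked for admixture, and the list medians were 1.99 for brain, 2.25 for skeletal muscle, 0.26 for fat and -1.07 for blood. The brain list summed to 236 CPM in the tumor of mouse 4, 31.9 to 83.1 CPM in the other tumors and 19.9 to 27.1 CPM in the non-transformed kidneys, and 3 of 14 genes rose (21.4%, against 12.1% of all genes). Nefl, a neurofilament chain, was among them (log2 fold change 5.34 ± 1.02, edgeR adjusted p = 0.00743, log2 fold change 4.73 and adjusted p 0.0286 with mouse as a block). Gfap was at 16.8 CPM in the tumor of mouse 4 (log2 fold change 2.16 ± 2.04, edgeR adjusted p = 0.477, log2 fold change -1.22 and adjusted p 0.762 with mouse as a block), and without that tumor its log2 fold change was -3.52 (edgeR adjusted p = 0.0294). Skeletal muscle genes summed to 928 and 1431 CPM in the tumors of mice 2 and 4 and to 49.9 to 252 CPM in the others, and none of 11 was called by edgeR's test. At an unadjusted p under 0.05, 5 were higher (19.8% of all genes), and DESeq2 called 5 higher (16.8%) and limma-voom 0 (11.2%). Fat genes summed to 1999 CPM in the tumor of mouse 2 and to at most 513.1 CPM in the other tumors, and only Pparg was called (log2 fold change 2.64 ± 0.61, edgeR adjusted p = 0.0178, log2 fold change 1.84 and adjusted p 0.123 with mouse as a block). None of 8 blood genes was called lower by edgeR's test, where 4 were lower at an unadjusted p under 0.05 (14.4% of all genes). DESeq2 called 3 of them lower (10.5%) and limma-voom 5 (12.1%). None of the 4 testable adrenal genes was called higher (1 at an unadjusted p under 0.05, 0 with DESeq2, 0 with limma-voom). The part of admixed tissue in the other results was not tested. Pparg lost its call without N3 or N5 (edgeR adjusted p up to 0.0602).

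The largest rises among well-expressed genes, taken by a rule of average level, non-overlap and the same direction in all 4 pairs, came from several of these groups and from outside them. Outside the lists the greatest was Gm7298 (chr6:121732932-121789084, plus strand), a member of the alpha-2-macroglobulin family with close copies, whose value is therefore uncertain (log2 fold change 7.90 ± 1.58, edgeR adjusted p = 0.00937, log2 fold change 6.17 and adjusted p 0.0485 with mouse as a block). Hsd3b6 (chr3:98805504-98814443, minus strand), a steroid dehydrogenase with near-identical relatives, followed (log2 fold change 7.34 ± 1.68, edgeR adjusted p = 0.0165, log2 fold change 3.64 and adjusted p 0.0330 with mouse as a block). It held 692 and 639 CPM in the tumors of mice 2 and 6, which have no non-transformed library, 9.11 to 55.1 CPM in the other tumors, at most 1.74 CPM in the non-transformed kidneys and 0.550 to 0.819 CPM in the control kidneys. Adam33 (chr2:131050591-131063814, minus strand), a membrane metalloprotease, spanned 78.2 to 349.9 CPM in the tumors (median 192) and read 2.67, 5.42, 4.51 and 1.57 CPM in the non-transformed kidneys (log2 fold change 5.94 ± 0.60, edgeR adjusted p = 0.000263). The matrix protein gene Ccn3 (chr15:54745702-54754039, plus strand) rose as well (log2 fold change 5.98 ± 1.34, edgeR adjusted p = 0.0153, log2 fold change 4.15 and adjusted p 0.0410 with mouse as a block). Genes best known from neurons or secretory cells were among the 15 as well. Cadps (chr14:12372563-12823079, minus strand), which primes dense-core vesicles, lay between 12.8 and 65.9 CPM in the 6 tumors, with a median of 37.1, against 0.470, 1.16, 0.799 and 0.680 CPM (log2 fold change 5.57 ± 0.51, edgeR adjusted p = 0.000157). Snap91 (chr9:86765923-86880654, minus strand), a clathrin adaptor of synapses (log2 fold change 5.83 ± 0.78, edgeR adjusted p = 0.00123), Nos1 (chr5:117781032-117958840, plus strand), neuronal nitric oxide synthase (log2 fold change 5.74 ± 0.79, edgeR adjusted p = 0.00139), and Cnr1 (chr4:33924593-33948831, plus strand), the cannabinoid receptor (log2 fold change 5.47 ± 0.88, edgeR adjusted p = 0.00327, log2 fold change 4.26 and adjusted p 0.0273 with mouse as a block), rose too. All tumors were above all kidneys for these genes because the rule required it. Hsd3b6 lost its call without N1, N3, N4 or N5 (edgeR adjusted p up to 0.0572), as did Ccn3 without N1 or N5 (up to 0.0543).

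By the same rule the largest falls were smaller, none beyond a log2 fold change of -1.96. The rule keeps only called genes, so larger falls that were not called, such as that of Slc5a2 (log2 fold change -2.58), are left out. F5 (chr1:164151838-164220277, plus strand), coagulation factor V, spanned 5.79 to 42.7 CPM in the tumors (median 20.1) and read 120.3, 50.8, 90.8 and 81.3 CPM in the non-transformed kidneys. It had a log2 fold change ± SE of -1.93 ± 0.44 (edgeR adjusted p = 0.0157, higher in 0 of 4 pairs) and was also called lower in the block. Acnat1 (chr4:49447105-49473912, minus strand), a peroxisomal acyltransferase, lay between 5.99 and 63.4 CPM in the 6 tumors, with a median of 21.9, against 120.4, 141, 119.5 and 92.6 CPM (log2 fold change -1.96 ± 0.58, edgeR adjusted p = 0.0446, 0.133 with mouse as a block). Retsat (chr6:72598475-72608425, plus strand), which saturates retinol (log2 fold change -1.79 ± 0.49, edgeR adjusted p = 0.0324, 0.15 with mouse as a block), Aspa (chr11:73304992-73329596, minus strand), which cleaves N-acetylaspartate (log2 fold change -1.79 ± 0.51, edgeR adjusted p = 0.0384, 0.120 with mouse as a block), Afm (chr5:90518932-90553543, plus strand), a vitamin E-binding protein (log2 fold change -1.76 ± 0.45, edgeR adjusted p = 0.0259, 0.0516 with mouse as a block), and Ddc (chr11:11814101-11898144, minus strand), which makes dopamine in the tubule (log2 fold change -1.64 ± 0.38, edgeR adjusted p = 0.0181, 0.126 with mouse as a block), were further examples. All 15 named falls had log2 fold changes between -1.96 and -1.64. Of those described here, Ddc and F5 had the fewest leave-outs that cost the call. F5 lost its call without N1 (edgeR adjusted p up to 0.0547), as did Acnat1 without T1, T3, T6, N1, N3, N4 or N5 (up to 0.107), Retsat without T1, T2, T3, N1, N3 or N4 (up to 0.0901), Aspa without T1, T2, T3, T6, N1, N3, N4 or N5 (up to 0.0941), Afm without T3, N1, N3 or N4 (up to 0.0738) and Ddc without N3 (up to 0.0646).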

How the data were processed

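RNA came from formalin-fixed, paraffin-embedded tissue and was made into libraries with a stranded total RNA kit without removal of ribosomal RNA, per the labels. Ribosomal RNA genes nevertheless held only 0.0076 to 0.065% of the counts in the 15 tumor and non-transformed libraries. The reason was not tested. The submitters' processing notes name FastQC, MultiQC, Bowtie2 and STAR 2.5.2a and the builds GRCm38 and mm10. The authors deposited raw read counts per gene. The counting tool, its annotation and its strand setting are not given in the sources used here, so overlapping and antisense genes could share reads. Of the nonzero counts, 79.0 to 83.2% in each of the 15 tumor and non-transformed libraries were even numbers, as they would be if both mates of a read pair were counted, in which case the printed totals exceed the number of sequenced fragments. Halved counts were tried as an alternative. Of 53379 genes, 53274 matched GENCODE M21, 105 did not, and 159 shared a symbol and are not named.

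Counts were summed per mouse and group and tested with edgeR 4.0.16 (limma 3.58.1, R 4.3.3): TMM factors, filterByExpr and the quasi-likelihood F-test, with Benjamini-Hochberg adjustment over all genes tested and a threshold of 0.05. Scripts were tested on simulated counts. Values written as a log2 fold change ± SE come from this fit, the SE being the absolute log2 fold change over the square root of F. The p-values measure the spread between mouse sums, and this fit takes both sums of a mouse as independent. CPM levels were scaled over all tumor, non-transformed and control sums together. Within-mouse ratios had 0.1 CPM added to both sides. Principal components were taken over the 15 single libraries. Tumor and non-transformed kidney of 1 animal pair the samples, so a fit with mouse as a block was made over the 4 such mice. Deviations from the group means correlated within a mouse at 0.155, 0.104, -0.0407 and 0.123 for mice 1, 3, 4 and 5, and between different mice at -0.42 to 0.286. Tumors of mice 3 and 5 correlated most with their own kidneys. The tumor of mouse 1 correlated most with the kidney of mouse 4 (0.286), and that of mouse 4 with the kidney of mouse 3 (0.27). The pairing thus comes from the animal and not from these values. DESeq2 1.42.0 was among the alternatives.

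Genes named are members of the lists or, beyond them, the 15 largest rises and 15 largest falls among called genes whose log2 CPM averaged 4 or more, with no overlap between groups and the same direction in all 4 pairs. The samples compared, the gene lists and this rule were chosen with earlier results of these data known. Libraries of brain and retro-orbital tumors and of Pax8-Cre fetal kidneys and their controls were not used here. Some members of the lists are not reported here by name.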

Additional observations from a re-analysis of the deposited data

Results flagged for a closer look

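Values of 1 mouse that stood far from the rest of their group were looked for in 418 groups of values, by Dixon's ratio of the gap to the whole range, and 27 (6.46%) passed the 95% limit. Chance flags about 1 in 20 groups.

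In the tumor of mouse 4, Dct (204 CPM, next 0.716), Gfap (16.8 CPM, next 0.129), Nefl (97.2 CPM, next 21.1), the summed brain list (236 CPM, next 83.1), Ppara (36.6 CPM, next 20.9), Slc7a7 (100.5 CPM, next 41.7) and Lhx1 (9.66 CPM, next 4.69) were far above the other tumors. The tumor of mouse 6 was far above the others for Tyrp1 (22.4 CPM), Cnr1 (284 CPM, next 73.4) and Gm7298 (187 CPM, next 43.0), and far below them for the summed pericyte and smooth muscle list (525 CPM, next 929). The tumor of mouse 5 stood apart for Aspscr1 (39.6 CPM, next 26.7) and the summed blood list (1107 CPM, next 467), and that of mouse 2 for the summed fat list (1999 CPM, next 513.1).

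Among the non-transformed kidneys, that of mouse 3 was far above the other kidneys for Dct (36.4 CPM), Gfap (1.74 CPM), Gpr143 (4.11 CPM), Ret (9.72 CPM), Cldn4 (25.3 CPM) and Cdkn2a (0.240 CPM). That of mouse 1 was above the others for Slc7a7 (214 CPM) and below them for the summed collagen and matrix list (2683 CPM). That of mouse 4 was above the others for Cdh5 (61.4 CPM) and the summed lymphocyte and antigen presentation list (1941 CPM). That of mouse 5 was above the others for Fn1 (258 CPM) and below them for Hnf4a (231 CPM) and the summed lysosomal hydrolases (4488 CPM).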

How the results depend on the processing

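The counts reported were 3755 genes, 2654 higher and 1101 lower. With mouse as a replicate block, which also leaves out the tumors of mice 2 and 6, they were 847, 826 and 21, with 4846 genes at an unadjusted p under 0.05 against 7487. The same 4 mice without the block, an alternative chosen after seeing the data, gave 1655, 1485 and 170. Testing against a 1.5-fold change gave 1408, 1377 and 31. DESeq2 gave 6004 genes and 2310 lower, and the number lower was 2655 with limma-voom and mouse as a random block, 1909 with control kidneys in the fit, 2009 with every library as its own sample and 633 without a filter beyond 1 count. Higher genes made up 70.7% of calls as reported, 68.7% with RLE and 68.4% with upper quartile factors, but 61.5% with DESeq2 and 48.1% with limma-voom. Of the 41 proximal tubule transport genes edgeR called 2 lower, DESeq2 11 and limma-voom with the random block 37, and of the 38 distal nephron genes 0, 3 and 31. Over all genes these tools called 5.02%, 10.5% and 12.1% lower. Leaving out 1 mouse sum gave 1712 to 5522 genes, 1457 to 3266 higher and 245 to 2256 lower. The total moved by over 1.5 times without the tumor of mouse 3 (2455) and without the kidney of mouse 1 (1712), 3 (1923), 4 (2352) or 5 (2088), and the number lower also without the tumor of mouse 2 (594), 5 (2256) or 6 (587).

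List medians moved by less than the standard deviation of their 4 within-mouse medians under the alternatives run, with exceptions in the NRF2, keratin and fat lists. In the distal nephron list these 4 medians ran from -6.23 to -0.34, so a wide spread left little that could count as a move. Medians near 0 (UDP-glucuronosyltransferases, endothelium, autophagy, pericyte and smooth muscle, lymphocyte, fat) changed sign under some of the alternatives. The NRF2 median was 0.15 with the block and 0.16 in the same 4 mice unpaired. The keratin median was -0.64 with the block and between -1.71 and -0.92 in the leave-outs. The fat median lay between -1.23 and 1.40 in the leave-outs. Of 176 named genes, 99 kept direction and call with the block, 73 kept direction and lost the call, 2 gained it and 2 changed direction. With sex as a covariate, read from Y-linked transcripts, 3280 genes were called, 2385 higher and 895 lower, and 16 of the 176 named genes lost their call. Gfap was at -1.22 with the block, -1.82 with limma-voom and -3.48 without the muscle-rich libraries, and at -3.52 to 3.47 in the leave-outs. Dct was at -0.25 with the block and -4.12 without the muscle-rich libraries, and at -4.53 to 6.72 in the leave-outs. No other named gene changed direction under the alternatives run. The cause of these changes was not tested. What depth limits was not tested, since no reads were thinned.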
